A study of Mus musculus with 9 samples.

Results

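Osteoclasts dissolve bone mineral by pumping acid into a sealed space beneath the cell, and 9 genes of that acid secretion machinery were described in whole osteosarcoma tumors of the mouse. The genes are Atp6v0d2, Tcirg1, Atp6v1c1 and Atp6v1b2, which encode subunits of the vacuolar proton pump (V-ATPase), Clcn7 and Ostm1 for chloride exchange, Car2 for the supply of protons, and Plekhm1 and Snx10 for vesicle traffic to the secreting membrane. They are 9 of the 55367 genes in the deposited table. The genes were chosen by name for these roles and from a comparison of the same tumors in which osteoclast genes were lower in the Myc-knockin group. Their differences between the groups are therefore given as a description, with no test, and nothing is read from their direction.

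Tumors of a pair of genetically engineered mouse models (GEMMs) were compared by RNA-Seq of whole tumor tissue, 4 of them p53-driven and 5 Myc knockin. The p53-driven tumors carried the genotype labelled Col2.3-Cre/TrpP53fl/+, with Cre under the osteoblast-specific Col2.3 promoter and a floxed Trp53 allele. The Myc-knockin tumors had the same Cre and floxed allele and in addition the LSL-c-MycT58A allele, a Myc coding sequence with 1 amino acid substituted, behind a stop cassette that Cre removes. Tumors arose spontaneously, and the age of the mice is not given in the labels. Because the Col2.3 promoter is active in osteoblasts, and osteoclasts come from the blood-forming lineage, the engineered alleles are not designed to recombine in osteoclasts.

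As background, the V-ATPase has a cytoplasmic V1 sector that hydrolyzes ATP and a membrane V0 sector through which protons pass. Osteoclasts insert it into the ruffled border, the folded membrane that faces bone, by fusing lysosome-related vesicles with it. Carbonic anhydrase II makes protons and bicarbonate from carbon dioxide and water, the pump moves the protons out, the ClC-7 exchanger carries chloride, and a chloride-bicarbonate exchanger on the opposite membrane returns bicarbonate to the blood. Loss of TCIRG1, CLCN7, OSTM1, CA2, PLEKHM1 or SNX10 is a known cause of osteopetrosis, a disease of dense bone. Most of these proteins also serve lysosomes of other cells, and Atp6v0d2 is expressed mainly in osteoclasts and related myeloid cells.

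The libraries differed in depth and content. Between 2716322 (M351) and 17073285 (M624) reads per tumor were counted on genes. In F187, M351, M408 and M9, 12 genes made of satellite repeats took 44.3%, 67.9%, 23.2% and 81.0% of the counts, which left 671790 counts on other genes in M9 and 872935 in M351. In these 4 libraries reads also lay on chemosensory receptor genes, and this background came to 5.52% of the other counts in F187, 16.8% in M351, 0.602% in M408 and 24.2% in M9. M624 and M664, both Myc knockin, held little Rn7sk, a small nuclear RNA that lacks a poly(A) tail, at 5.33 and 9.32 CPM outside the satellite genes (CPM, counts scaled to a common total), against 8858 CPM or more in the other 7 libraries. As both belong to 1 group, an effect of the library and an effect of genotype cannot be told apart in this pair. Results are therefore also given over the other 7 tumors, and without the 4 libraries with satellite reads. The latter comparison sets F325, F331 and F368 against M624 and M664 alone. In it an effect of the library and an effect of genotype cannot be told apart for any gene. In the comparison over 7 tumors, the Myc-knockin tumors M351, M408 and M9 were all libraries with satellite reads, and among the p53-driven tumors only F187 was. Library and genotype effects are therefore hard to tell apart there too. Values below are CPM relative to the counts on the tested genes, scaled by edgeR's TMM method, on which a floor of 3 counts was 2.39 CPM in M9 and as low as 0.114 CPM in M624. All 9 genes passed the filter on low counts, and their counts per tumor ranged from 8 for Car2 in M9 to 6530 for Atp6v1b2 in F331.

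All 9 genes had a lower mean in the Myc-knockin tumors, with log2 fold changes (Myc-knockin minus p53-driven) from -4.21 for Atp6v0d2 to -1.21 for Tcirg1 and a median of -1.99. The median over the 15365 genes tested was 0.14. For 6 of the 9, Atp6v0d2, Atp6v1c1, Atp6v1b2, Clcn7, Plekhm1 and Snx10, every Myc-knockin tumor lay below every p53-driven tumor, as did 7.54% of all tested genes. The fit across all genes also covered these 9, and the same 6 passed its threshold (fold change above 1.5 and adjusted p below 0.05 in edgeR's quasi-likelihood fit), beside 3.0% of all tested genes called lower. With F325, F331 or F368 left out 1 of the 9 passed it, beside 0.0292% to 0.0375% of all tested genes called lower. With F187 or M351 left out 3 did, beside 1.22% and 1.27%, and with M408, M9, M624 or M664 left out 4 to 8, beside 1.49% to 4.34%. Since the choice of the genes used this contrast, these counts are no test of the 9 genes and nothing is read from them. When M624 and M664 were left out the median was -2.51 and 8 of 9 were past the threshold, beside 2.81% of genes called lower. Without the 4 libraries with satellite reads the median was -1.80 and 3 of 9 were past it, beside 12.1% of all tested genes called lower and 15.7% higher in that comparison. In whole tumors, fewer osteoclasts, less RNA per osteoclast and less of this RNA in other cells cannot be told apart.

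**Figure D1:**
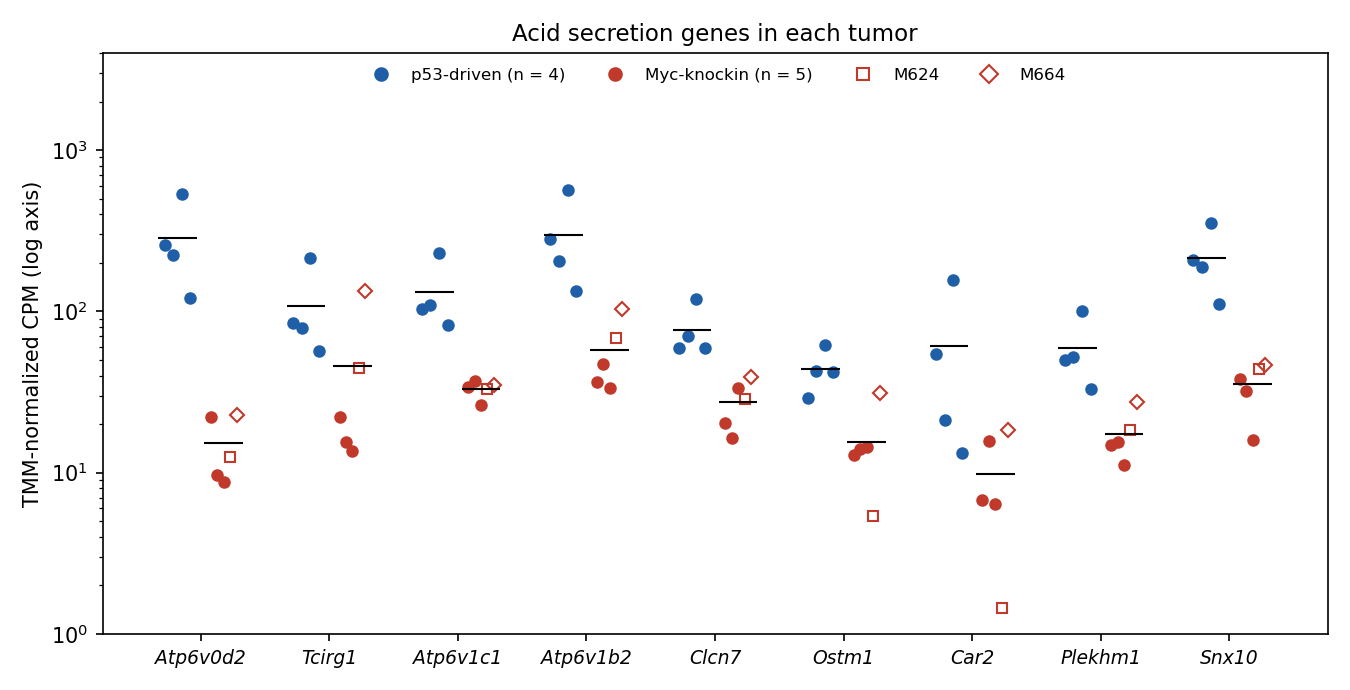
TMM-normalized CPM of the 9 acid secretion genes on a log axis, with 1 symbol per tumor and black lines at group means (4 p53-driven tumors in blue, 5 Myc-knockin tumors in red, open square for M624 and open diamond for M664). Atp6v0d2 lies between 121 and 533 CPM in the p53-driven tumors and between 8.76 and 22.8 CPM in the Myc-knockin tumors, and Tcirg1 overlaps because of M664 at 135 CPM.

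Atp6v0d2 (ENSMUSG00000028238, chromosome 4 of mm10 from 19876841 to 19922605, minus strand) encodes the d2 isoform of the V0 subunit that links the membrane ring to the rotor. Its values were 259.5 CPM in F187, 222 in F325, 533 in F331 and 121 in F368, and 22.2 in M351, 9.71 in M408, 8.76 in M9, 12.6 in M624 and 22.8 in M664. The highest Myc-knockin tumor thus had less than the lowest p53-driven tumor, and the spread within each group was smaller than the gap between them on the log scale. The group means were 284 ± 176 CPM (SD, n = 4) and 15.2 ± 6.81 CPM (SD, n = 5), with a log2 fold change of -4.21 (SE 0.49). It was -4.35 (SE 0.63) over the 7 tumors without M624 and M664 and -4.03 (SE 0.79) without the 4 libraries with satellite reads.

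Tcirg1 (ENSMUSG00000001750, chromosome 19 from 3896050 to 3907133, minus strand) encodes the a3 isoform of the V0 subunit that anchors the pump in the ruffled border and forms its proton path. It had 84.9, 78.8, 214 and 56.8 CPM in F187, F325, F331 and F368, and 22.2, 15.6, 13.5, 44.4 and 135 CPM in M351, M408, M9, M624 and M664. M664 exceeded 3 of the 4 p53-driven tumors, and M624 lay between these and the other 3 Myc-knockin tumors. The log2 fold change was -1.21 (SE 0.67), and this gene depended more than the other 8 on which libraries were used. It was -2.62 (SE 0.51) without M624 and M664, -2.14 with M664 alone left out, and -0.37 (SE 0.72) without the 4 libraries with satellite reads. The ratio of Tcirg1 to Atp6v0d2, each per kilobase of exon, was 0.193 to 0.278 in the p53-driven tumors, 0.590 to 0.946 in M351, M408 and M9, 2.08 in M624 and 3.48 in M664.

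The V1 subunits among the 9 genes were Atp6v1b2, the B2 isoform that pairs with subunit A in the ring that hydrolyzes ATP, and Atp6v1c1, the C1 isoform of the stator that holds V1 on V0. Atp6v1b2 (chromosome 8 from 69088646 to 69113711, plus strand) had 281, 207, 565 and 134 CPM in F187, F325, F331 and F368, and 36.3, 47.1, 33.5, 68.7 and 103 CPM in M351, M408, M9, M624 and M664. The groups did not overlap, and M624 and M664 were the highest of the Myc-knockin tumors. Its log2 fold change was -2.35 (SE 0.48), or -2.86 (SE 0.52) without that pair. Atp6v1c1 (chromosome 15 from 38661933 to 38692446, plus strand) had 104, 109, 229 and 82.8 CPM in the p53-driven tumors in the same order, and 33.9, 36.8, 26.3, 32.9 and 34.9 CPM in the Myc-knockin tumors. Here M624 and M664 were within the range of the other 3 Myc-knockin tumors, and the log2 fold change was -1.99 (SE 0.32) with them and -1.95 (SE 0.40) without them.

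Clcn7 encodes the ClC-7 chloride-proton exchanger of lysosomes and the ruffled border, and Ostm1 the partner protein that keeps ClC-7 stable. Clcn7 (chromosome 17 from 25133391 to 25162104, plus strand) had 59.2, 70.0, 119 and 59.0 CPM in F187, F325, F331 and F368, and 20.3, 16.5, 33.5, 28.7 and 38.9 CPM in M351, M408, M9, M624 and M664. The groups did not overlap, with a log2 fold change of -1.47 (SE 0.33), or -1.69 (SE 0.37) without M624 and M664. Ostm1 (chromosome 10 from 42583822 to 42702459, plus strand) had 28.8, 42.8, 62.2 and 42.2 CPM in the p53-driven tumors and 12.9, 14.1, 14.3, 5.37 and 31.0 CPM in the Myc-knockin tumors, in the same orders. M664 was above F187, so that the groups overlapped, and M624 was the lowest tumor. The log2 fold change of Ostm1 was -1.49 (SE 0.44), and -1.62 (SE 0.30) without the pair.

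Car2 (ENSMUSG00000027562, chromosome 3 from 14886273 to 14900770, plus strand) encodes carbonic anhydrase II, the cytosolic enzyme that supplies the pump with protons. It varied widely within the groups, with 54.1, 21.3, 157 and 13.3 CPM in F187, F325, F331 and F368, and 6.77, 15.8, 6.37, 1.45 and 18.4 CPM in M351, M408, M9, M624 and M664. M408 and M664 were above F368, and the p53-driven mean of 61.4 ± 66.0 CPM (SD, n = 4) came chiefly from F331. The log2 fold change was -2.62 (SE 0.80), and it was -1.56 with F331 left out. The enzyme also occurs in red cells, whose markers are given further on.

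Plekhm1 is an adaptor that joins the small GTPase Rab7 to the fusion of lysosomes, and Snx10 is a sorting nexin of endosomes that the ruffled border needs. Plekhm1 (chromosome 11 from 103364275 to 103412687, minus strand) had 49.8, 52.0, 101 and 33.1 CPM in F187, F325, F331 and F368, and 14.8, 15.4, 11.2, 18.5 and 27.4 CPM in M351, M408, M9, M624 and M664. Snx10 (chromosome 6 from 51523901 to 51590679, plus strand) had 209, 188, 354 and 110 CPM in the p53-driven tumors and 38.2, 32.2, 15.9, 43.7 and 46.6 CPM in the Myc-knockin tumors. Neither gene's groups overlapped, although F368 and M664 lay close for Plekhm1. The log2 fold changes were -1.73 (SE 0.37) for Plekhm1 and -2.59 (SE 0.40) for Snx10, and without M624 and M664 they were -2.02 (SE 0.42) and -2.83 (SE 0.49).

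The highest and lowest tumors were largely the same from gene to gene, and the order between them was not. F331 was the highest of the 9 tumors for 9 of the 9 genes, and F368 was the lowest p53-driven tumor for 8, the exception being Ostm1, where F187 was lowest. Among Myc-knockin tumors M664 was the highest for 8 genes, the exception being Atp6v1c1, where M408 was highest, and M9 was the lowest for 6. M9 was, however, the next highest Myc-knockin tumor after M664 for Clcn7, and M624 was lowest for Ostm1 and next highest after M664 for Snx10. The summed level of the 9 genes was 2333 CPM in F331, 652 to 1130 CPM in F187, F325 and F368, 458 CPM in M664 and 163 to 256 CPM in M351, M408, M9 and M624. The reads that background alone would place on the 9 genes were 15.7% to 57.8% of their counts in M9, 8.47% to 38.6% in M351, 0.295% to 7.04% in F187 and at most 1.43% in M408. In M9, 11.6 of the 20 counts of Snx10 were expected from background. With background taken off every library, the log2 fold changes were -4.17 for Atp6v0d2, -2.64 for Snx10 and -1.61 for Ostm1.

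Levels can be compared between genes only after division by exon length. In the p53-driven tumors Atp6v0d2 had the highest mean level, at 104 ± 64.8 CPM per kilobase of exon (SD, n = 4), ahead of Atp6v1b2 at 55.9 ± 35.5. Car2, Tcirg1, Atp6v1c1 and Snx10 followed at 25.3, 23.6, 23.4 and 23.1 CPM per kilobase and did not differ beyond their spread. Clcn7 had 14.5, Plekhm1 9.89 and Ostm1 6.10 CPM per kilobase. In the Myc-knockin tumors Atp6v1b2 had 10.9 ± 5.46 CPM per kilobase (SD, n = 5), and Atp6v1c1, Atp6v0d2 and Clcn7 had 5.88, 5.60 and 5.21, with Ostm1 again last at 2.16. The place of Tcirg1 there depended on M664, since it had 29.2 CPM per kilobase in M664 and 2.94 to 9.64 in the other 4. Without M624 and M664 its mean was 3.71, below the 5.77 of Atp6v1c1, 4.99 of Atp6v0d2 and 4.43 of Clcn7. In both groups Ostm1 had less than Clcn7, the exchanger it accompanies.

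Several subunits of the pump come in isoforms encoded by paralogs. The share of the isoform encoded by an acid secretion gene was computed per kilobase of exon in each tumor. Atp6v0d2 made up 77.5%, 77.5%, 85.9% and 65.0% of subunit d RNA in F187, F325, F331 and F368, the rest being the widely expressed Atp6v0d1. Its share was 53.1%, 22.0%, 12.3%, 17.3% and 19.1% in M351, M408, M9, M624 and M664. So Atp6v0d1 was the main isoform in 4 of the 5 Myc-knockin tumors, and M351, the exception, had 36 counts of Atp6v0d2 and 21 of Atp6v0d1. Taking off the background changed the share to 53.4% in M351 and 9.18% in M9. The group means of Atp6v0d1 itself were 48.2 ± 7.18 CPM (SD, n = 4) and 36.1 ± 19.5 CPM (SD, n = 5), and it had a log2 fold change of -0.40 (SE 0.39, edgeR adjusted p = 0.540) that became 0.14 without the 4 libraries with satellite reads, -0.87 (edgeR adjusted p = 0.175) without M624 and M664 and -0.99 with limma-voom.

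Tcirg1 made up 49.1%, 40.6%, 71.4% and 32.1% of the RNA for subunit a in F187, F325, F331 and F368 and 37.6%, 23.7%, 15.3%, 52.3% and 69.4% in M351, M408, M9, M624 and M664, so that the groups overlapped. Its paralogs Atp6v0a1 and Atp6v0a2, found in most tissues, had log2 fold changes of -0.92 (SE 0.26, edgeR adjusted p = 0.0628) and -1.10 (SE 0.30, edgeR adjusted p = 0.0574) and did not pass the threshold, though both passed with DESeq2 and with limma-voom. Atp6v0a4, an isoform of kidney and inner ear, was near the floor at 2.17 ± 1.67 CPM (SD, n = 4) and 3.23 ± 5.86 CPM (SD, n = 5), and its log2 fold change of 0.37 (SE 1.54, edgeR adjusted p = 0.908) became -2.68 without M9, which had 13.5 CPM. Without the 4 libraries with satellite reads it was -4.41 and passed the threshold (edgeR adjusted p = 0.0430). Atp6v1b2 made up 98.8% or more of subunit B in the p53-driven tumors and 81.3% to 100% in the Myc-knockin tumors, and Atp6v1c1 93.6% to 99.9% and 53.8% to 98.4% of subunit C. The lowest of these shares came from M9, where Atp6v1b1 and Atp6v1c2, isoforms of kidney and other epithelia, had 6.37 and 8.76 CPM with the background included. Neither passed the filter on low counts.

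**Figure D2:**
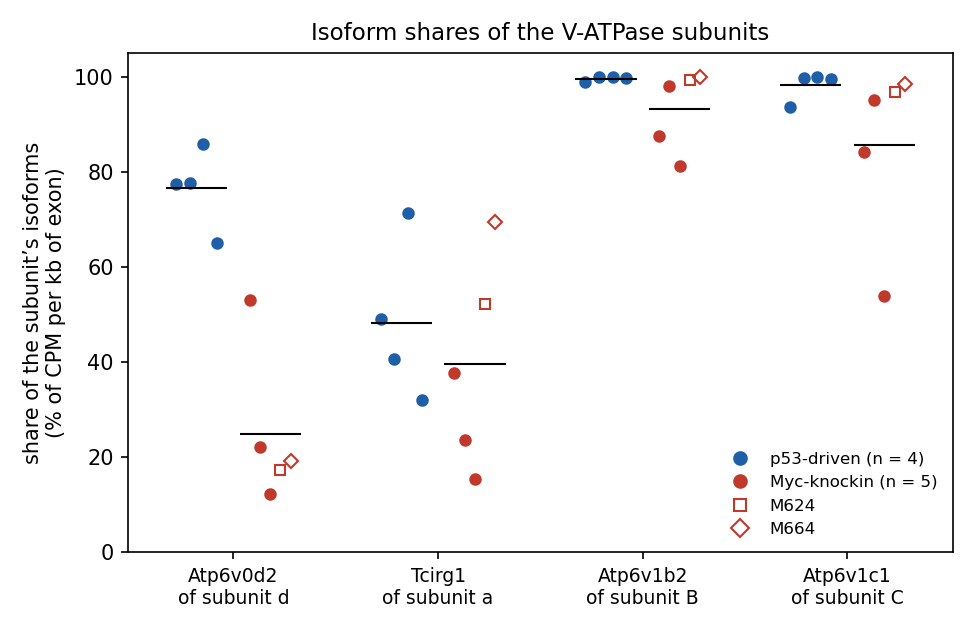
Share of the isoform encoded by Atp6v0d2, Tcirg1, Atp6v1b2 or Atp6v1c1 among all isoforms of its V-ATPase subunit, in percent of CPM per kilobase of exon, with 1 symbol per tumor and black lines at group means (4 p53-driven tumors in blue, 5 Myc-knockin tumors in red, open square for M624 and open diamond for M664). Atp6v0d2 takes 65.0% to 85.9% of subunit d in the p53-driven tumors and 12.3% to 53.1% in the Myc-knockin tumors, while the shares of Tcirg1 overlap.

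The rest of the pump was tested with a list of 21 further V-ATPase genes, of which 17 had enough counts. Atp6v1a, Atp6v1d, Atp6v1e1, Atp6ap1 and Atp6ap2 were lower in the Myc-knockin tumors, 5 of 17, and 0 were higher, where 3.0% of all tested genes were called lower and 2.26% higher. The median log2 fold change over the 17 was -0.92, against 0.14 over all tested genes, and it was negative under each of the 4 scalings. Atp6v1a, the catalytic subunit that binds ATP, had 379 ± 230 CPM (SD, n = 4) and 77.9 ± 13.4 CPM (SD, n = 5), a log2 fold change of -2.28 (SE 0.38, edgeR adjusted p = 0.0203), and was lower in 5 of 5 Myc-knockin tumors than in any p53-driven tumor. Atp6v1d, part of the rotor shaft, fell by 1.66 on the log2 scale (SE 0.32, edgeR adjusted p = 0.0255). Atp6v1e1, part of the stator, fell by 1.51 (SE 0.36, edgeR adjusted p = 0.0415). The accessory proteins Atp6ap1 and Atp6ap2 fell by 1.60 (SE 0.30, edgeR adjusted p = 0.0247) and 1.40 (SE 0.31, edgeR adjusted p = 0.0334), and Atp6ap2 is named here after its value was seen.

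These calls depended on single tumors. With F325, F331 or F368 left out edgeR called 0 of the further V-ATPase genes, when it called 8, 6 and 5 genes in all, with 10 V-ATPase genes at an unadjusted p under 0.05 in each of these fits beside 16.6% to 19.6% of all tested genes, and with F187, M351 or M624 left out it called 3. DESeq2 called 9 lower and 1 higher, Atp6v0e2, which is named after its value was seen, and limma-voom 8 lower over all 9 tumors, where they called 7.24% and 6.51% of all tested genes lower and 9.98% and 4.32% higher. Without the 4 libraries with satellite reads 4 of 17 were called lower and 1 higher, with a median of -1.06, beside the 12.1% and 15.7% of all tested genes given above. Of the 5 genes called over 9 tumors, Atp6v1a and Atp6v1e1 were called there, and Atp6v1d, Atp6ap1 and Atp6ap2 were not (edgeR adjusted p = 0.0621, 0.0506 and 0.0789). Scaling by library size alone gave 0 calls, with 6 genes at an unadjusted p under 0.05 beside 16.4% of all tested genes. The log2 fold change of Atp6v1a stayed between -2.51, without F368, and -1.76, without F331, as single tumors were left out.

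Some of the further V-ATPase genes depended on M624 and M664, among them Atp6v0b, Atp6v0c and Atp6v1f. Over the 7 other tumors 15 of the further V-ATPase genes had enough counts, 8 were called lower and 0 higher, and the median was -1.48. In that fit 2.81% of all tested genes were called lower and 1.8% higher. Atp6v1e1 was no longer among those called, at -1.31 (edgeR adjusted p = 0.104). Atp6v0c, which forms the proton-carrying ring, had 13.4 to 27.0 CPM in the p53-driven tumors, 5.68 to 7.39 CPM in M351, M408 and M9, and 26.0 and 36.0 CPM in M624 and M664. Its log2 fold change was -0.13 (SE 0.56, edgeR adjusted p = 0.907) over 9 tumors and -1.48 (SE 0.33, edgeR adjusted p = 0.0451) over 7, and it was 0.68 without the 4 libraries with satellite reads. Atp6v0b, also of the ring, and Atp6v1f, of the rotor, followed the same pattern, with -0.57 and -0.32 over 9 tumors and -1.96 and -1.55 over 7. Atp6v1a, at 89.8 and 75.8 CPM in M624 and M664, lay within the range of the other 3 Myc-knockin tumors. Atp6v0b, Atp6v0c and Atp6v1f were named after their values were seen.

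**Figure D3:**
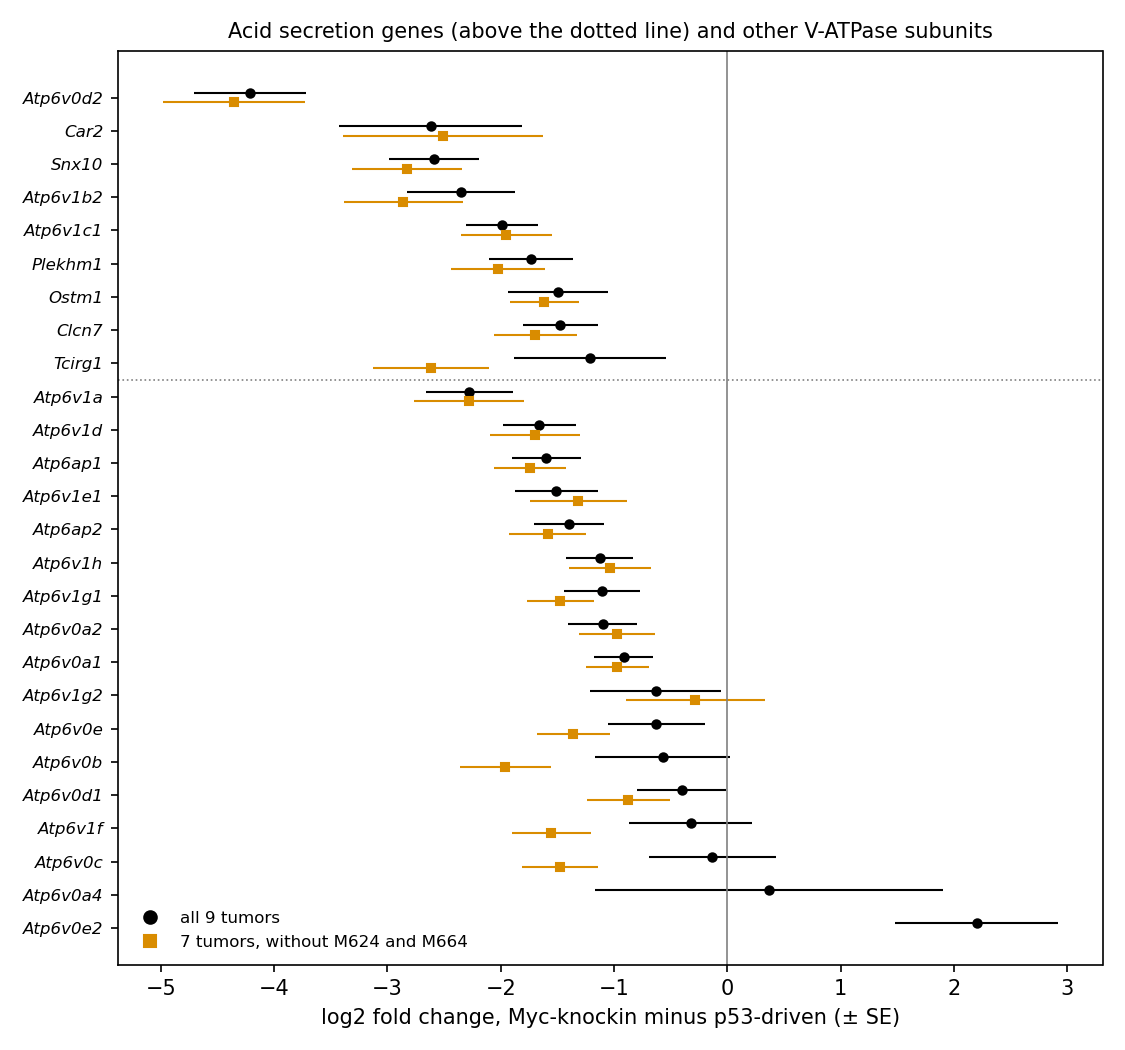
Log2 fold change, Myc-knockin minus p53-driven, with bars for 1 standard error, for the 9 acid secretion genes (above the dotted line, described with no test) and the 17 tested further V-ATPase genes, over all 9 tumors (black circles) and over the 7 tumors without M624 and M664 (orange squares, 15 of the 17 genes). Tcirg1 moves from -1.21 to -2.62 and Atp6v0c from -0.13 to -1.48 when the pair is left out, while Atp6v0d2 (-4.21 and -4.35) and Atp6v1a (-2.28 and -2.28) hardly move.

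Of 8 other genes of the CLC chloride channel family, 6 had enough counts and edgeR called 0 of them, with 2 of 6 at an unadjusted p under 0.05 beside 26.8% of all tested genes. DESeq2 called 1 and limma-voom 0, beside 17.2% and 10.8% of all tested genes. Those with an unadjusted p under 0.05 in edgeR were Clcn3, which was higher, and Clcn5, which was lower (log2 fold change -0.58) and is named after its value was seen. The median log2 fold change of the 6 was 0.78 over 9 tumors, 0.31 with library size alone and 0.13 without M9, where 3 genes were negative and 3 positive. Without the 4 libraries with satellite reads the median was 0.27 and 2 of 6 were called higher, beside 15.7% of all tested genes. Clcn3, an exchanger of endosomes, had 19.4, 21.6, 18.2 and 15.7 CPM in F187, F325, F331 and F368 and 27.7, 31.3, 34.3, 56.5 and 31.8 CPM in M351, M408, M9, M624 and M664. Every Myc-knockin tumor was above every p53-driven one, and its log2 fold change was 0.96 (SE 0.28, edgeR adjusted p = 0.0677), which did not pass. It passed with upper-quartile normalization, with at least 10 counts required in every tumor, with DESeq2, and without the 4 libraries with satellite reads. Clcn6, the closest relative of Clcn7 and a late endosomal exchanger of neurons, had 9.51 ± 2.52 CPM (SD, n = 4) and 15.4 ± 9.08 CPM (SD, n = 5), and its log2 fold change of 0.70 (SE 0.47, edgeR adjusted p = 0.366) did not pass.

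Of 18 other carbonic anhydrase and anion exchanger genes, 11 had enough counts, 1 was called lower and 0 higher, beside 3.0% and 2.26% of all tested genes. The called gene was Slc4a2, which encodes the exchanger AE2 that osteoclasts use to send bicarbonate out and take chloride in. It had 75.8, 87.7, 153 and 59.3 CPM in F187, F325, F331 and F368, and 16.0, 18.3, 29.5, 47.2 and 46.8 CPM in M351, M408, M9, M624 and M664. The groups did not overlap, with a log2 fold change of -1.56 (SE 0.40, edgeR adjusted p = 0.0496), and of -2.11 (SE 0.40, edgeR adjusted p = 0.0347) without M624 and M664. The adjusted p lay just inside the threshold, and when tumors were left out singly Slc4a2 passed without M664 (edgeR adjusted p = 0.0466) and failed without any other, up to an adjusted p of 0.179 without F331. The list's median log2 fold change was 0.33, but it was -0.16 without M9 and -0.042 without M664. Without the 4 libraries with satellite reads this median was -0.87, 0 of 13 genes were called lower and 2 higher, beside 12.1% and 15.7% of all tested genes, with 3 of 13 at an unadjusted p under 0.05 beside 42.8%, and Slc4a2 had -1.08 (edgeR adjusted p = 0.117).

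Among the carbonic anhydrases, Car3, a cytosolic form of muscle and fat, was the most abundant per kilobase of exon in 8 of the 9 tumors. It had 391 to 967 CPM in the p53-driven tumors, 278 to 326 CPM in M351, M408, M9 and M664, and 0.838 CPM in M624, with a log2 fold change of -1.40 (SE 0.96, edgeR adjusted p = 0.374). Car12, a membrane form with its active site outside the cell, had 95.8 CPM in M624 and 65.7 CPM in F331 and at most 32.8 CPM in the other 7 tumors (log2 fold change 0.99, SE 1.04, edgeR adjusted p = 0.577). Without F331 its log2 fold change was 3.79 (edgeR adjusted p = 0.0962), without M624 0.32, and with M624 and M664 both left out 0.061. Car13, a cytosolic relative of Car2, had 17.1 ± 1.87 CPM (SD, n = 4) and 11.4 ± 3.42 CPM (SD, n = 5), and its log2 fold change was -0.61 (SE 0.32, edgeR adjusted p = 0.255). Car9, a membrane form induced by low oxygen, was near the floor at 1.70 ± 1.09 CPM (SD, n = 4) and 2.73 ± 2.76 CPM (SD, n = 5).

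Of 12 other genes of vesicle traffic to the ruffled border, all tested, Arl8b and Fam98a were called lower and 0 higher, beside 3.0% and 2.26% of all tested genes. The median log2 fold change of the 12 was -0.55. Arl8b, the GTPase that carries lysosomes toward the cell edge, had 158, 165, 173 and 188 CPM in F187, F325, F331 and F368 and 65.1 to 100 CPM in the Myc-knockin tumors. It fell by 1.01 on the log2 scale (SE 0.24, edgeR adjusted p = 0.0400), and here F331 was not the highest tumor. Fam98a, a binding partner of Plekhm1, fell by 1.12 (SE 0.29, edgeR adjusted p = 0.0492), and its highest value was in F368, at 179 CPM. When tumors were left out singly Arl8b passed without M408 and without M9 (edgeR adjusted p = 0.0474 and 0.0336) and Fam98a passed in none of the 9 fits, with edgeR adjusted p from 0.0550 without M9 to 0.192 without F368. Over the 7 tumors without M624 and M664 neither was called (edgeR adjusted p = 0.0680 for Arl8b and 0.0539 for Fam98a). Over all 9 tumors 7 of the 12 genes had an unadjusted p under 0.05 in edgeR, beside 26.8% of all tested genes. DESeq2 and limma-voom called 5 lower and 1 higher each. Of all tested genes they called 7.24% and 6.51% lower and 9.98% and 4.32% higher. Rab7, the late endosomal GTPase to which Plekhm1 binds, had 260.0 ± 47.9 CPM (SD, n = 4) and 127 ± 37.1 CPM (SD, n = 5), with a log2 fold change of -1.04 (SE 0.29, edgeR adjusted p = 0.0604). Plekhm3, a relative of Plekhm1, had -1.13 (SE 0.32, edgeR adjusted p = 0.0594). Of 21 alternatives, Rab7 passed in 4 and Plekhm3 in 5. Plekhm3 passed without the 4 libraries with satellite reads, at -1.48 (edgeR adjusted p = 0.0232). Snx11, the closest relative of Snx10, had 0.10 (SE 0.47, edgeR adjusted p = 0.915), which became -0.48 without M624 and M664 and 0.73 without the 4 libraries with satellite reads. Without those 4 libraries 2 of the 12 were called lower and 2 higher, beside 12.1% and 15.7% of all tested genes, and Fam98a was not called (edgeR adjusted p = 0.0857).

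Markers of the cells that could hold these RNAs were summed in each tumor, and their part in the differences was not tested. Of 11 osteoclast markers, 11 had enough counts and 8 were called lower, 0 higher, beside 3.0% and 2.26% of all tested genes. As lower osteoclast genes in these tumors prompted the choice of the 9 genes, these calls are no independent result. Without M624 and M664 8 were called lower, and without the 4 libraries with satellite reads 5, beside 2.81% and 12.1% of all tested genes. Their summed level was 7374, 5326, 14326 and 2888 CPM in F187, F325, F331 and F368, and 438, 340, 186, 360 and 2677 CPM in M351, M408, M9, M624 and M664. By this sum F331 was the highest and M664 the highest of the Myc-knockin tumors, as they were for most of the acid secretion genes. The median log2 CPM of the 11 markers was also highest in F331, at 7.17. By that median M664, at 3.72, was below M351 at 4.52 and M9 at 3.86, and above M408 at 3.11 and M624 at 2.02. Per kilobase of exon the most abundant marker was Mmp9, a protease that neutrophils make too, in F187, M408 and M664, and Ctsk, the main collagen-degrading protease of osteoclasts, in the other 6. With F325, F331 or F368 left out edgeR called 0 of the 11, with 11 at an unadjusted p under 0.05 in each of these fits beside 16.6% to 19.6% of all tested genes. Dcstamp, needed for the fusion of osteoclast precursors, had 0 counts in M408 and 1.85 CPM in M351, 4.78 in M9, 0.343 in M624 and 2.59 in M664, against 13.5 to 124 CPM in the p53-driven tumors.

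Of the 9 tumors, M664 had the lowest ratio of Atp6v0d2 to Ctsk and the highest ratio of Tcirg1 to Atp6v0d2, each per kilobase of exon. It had 481 CPM of Acp5, the acid phosphatase of osteoclasts, against 412 CPM in F368, and 425 CPM of Ctsk against 901 CPM. Its Atp6v0d2, at 22.8 CPM, was far below the 121 CPM of F368, while its Tcirg1, at 135 CPM, was above the 56.8 CPM of F368. Atp6v0d2 per kilobase was 2.99% of Ctsk per kilobase in M664, 7.45% to 9.97% in the p53-driven tumors, 9.08% in M624, 9.59% in M351, 17.5% in M408 and 18.6% in M9. Acp5 was named after its value was seen and does not stand for the list. For 9 of the 11 osteoclast markers, Ctsk among them, every Myc-knockin tumor, M664 included, lay below every p53-driven tumor, as did 7.54% of all tested genes.

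The 12 macrophage markers had summed levels of 785 to 1484 CPM in the p53-driven tumors and 434, 667, 355, 413 and 1182 CPM in M351, M408, M9, M624 and M664, and 2 of them, Cd68 and Csf1r, were called lower and 0 higher, beside 3.0% and 2.26% of all tested genes. Of the 12, 8 had a negative and 4 a positive log2 fold change, with a median of -0.39. None was at 0, and the most abundant per kilobase of exon was Cd68 in F187 and F331 and Lyz2 in the other 7. The 19 lysosome genes, which osteoclasts share with other cells, had 6 called lower and 0 higher, beside the same shares of all tested genes, and a median log2 fold change of -0.92. Their summed level was 3340 to 4831 CPM in the p53-driven tumors and 1447, 2500, 1182, 2498 and 3726 CPM in M351, M408, M9, M624 and M664, with Psap the most abundant per kilobase in 8 tumors and Lamp1 in M9. With F325, F331 or F368 left out edgeR called 0 macrophage markers and 0 lysosome genes, with 2 to 4 and 7 to 8 of them at an unadjusted p under 0.05 beside 16.6% to 19.6% of all tested genes. Over the 7 tumors without M624 and M664 2 macrophage markers and 7 lysosome genes were called lower, beside 2.81% of all tested genes, with medians of -0.62 and -1.23. Without the 4 libraries with satellite reads 1 and 4 were called lower, beside 12.1% of all tested genes, and the medians were -0.14 and -0.26. The macrophage marker called there was Mrc1, and Cd68 and Csf1r were not called (edgeR adjusted p = 0.0673 and 0.0717). Library size alone gave 0 calls in both lists, with 3 and 6 at an unadjusted p under 0.05 beside 16.4% of all tested genes. The 9 osteoblast markers, with Col1a1 the most abundant per kilobase in 8 tumors and Ibsp in M351, summed to between 43057 and 95587 CPM in the p53-driven and between 2240 and 24597 CPM in the Myc-knockin tumors. Among them 2 were called lower, 3 without M624 and M664, 1 without the 4 libraries with satellite reads, and 0 with F325, F331 or F368 left out (3 at an unadjusted p under 0.05 in each). The shares of all tested genes called lower were 3.0% over 9 tumors, 2.81% without the pair and 12.1% without the 4 libraries. Bglap2 had 0 counts in M408 and M624 and Bglap in M408.

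The 9 red cell markers, summed to between 7.70 and 48.7 CPM in 7 tumors, where Hba-a1 and Hba-a2 had 0 counts, and to 217 CPM in M624 and 785 CPM in M664, where Hba-a1 was the most abundant per kilobase. The globins did not pass the filter on low counts over 9 tumors, and of the 2 markers tested, Alas2 and Slc4a1, edgeR, DESeq2 and limma-voom called 0, with 0 at an unadjusted p under 0.05. Where globins were tested, edgeR called 4 of 7 markers higher without the 4 libraries with satellite reads, and 3 of 9 with all genes of at least 1 count, beside 15.7% and 0.457% of all tested genes. The 8 skeletal muscle markers summed to 5066 CPM in F325 and 2070 CPM in M408 and to between 5.45 and 556 CPM in the other 7, with 0 of 7 tested genes called (0 with DESeq2 and limma-voom, and 0 at an unadjusted p under 0.05). Without the 4 libraries with satellite reads 1 was called lower, beside 12.1% of all tested genes. Tnnc2 had 0 counts in 6 tumors, and the most abundant per kilobase was Acta1 in 7 tumors, Actn3 in F187 and Mylpf in M624.

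The tested genes outside these lists that followed the 9 genes most closely were found from log2 CPM over the 9 tumors after each group's mean was taken off. The highest mean Pearson r with the 9 genes were 0.79 for H3f3a-ps1, 0.78 for Cav2, 0.76 for Gm2a, 0.76 for Arsb and 0.76 for Rcan1, each over 9 tumors that share depth and background with the genes compared. Arsb, a lysosomal sulfatase, had 344, 268, 818 and 119 CPM in F187, F325, F331 and F368 and 24.0, 24.7, 22.3, 21.3 and 43.6 CPM in M351, M408, M9, M624 and M664. The order of these tumors follows from how Arsb was picked. Arsb fell by 3.82 on the log2 scale (SE 0.52, edgeR adjusted p = 0.0137) and had -3.97 without M624 and M664 (edgeR adjusted p = 0.0297). Gm2a, an activator of lysosomal ganglioside breakdown, fell by 1.73 (SE 0.36, edgeR adjusted p = 0.0287). Cav2 (log2 fold change -1.41, edgeR adjusted p = 0.0510) and Rcan1 (-0.54, edgeR adjusted p = 0.283) did not pass, and H3f3a-ps1, a pseudogene near the floor at 1.38 CPM in the p53-driven tumors, may share reads with its parent gene.

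Promoters of the 9 genes were searched for short motifs, each promoter taken as 250 bases before to 50 bases after the transcript start in RefSeq on build GRCm38.p6. The table held 10 promoters of 5 of the 9 genes, Tcirg1, Clcn7, Ostm1, Plekhm1 and Snx10. The letters searched on both strands were CACGTG, an E-box that MYC and MAX and also the MiT/TFE factors are known to bind, TCACGTG, which contains it, and TCATGTG, known for MITF. Of all 32851 promoters, 7.15% held CACGTG, 3.77% TCACGTG and 3.77% TCATGTG, and of all 27025 genes with a promoter there, 8.09%, 4.29% and 4.31% did. Among the 5 genes Clcn7 alone held any of them. The window shown holds 2 copies of TCACGTG as read on the plus strand, in capitals, at the upstream start of Clcn7, on chr17:25133375-25133404 of the plus strand. The first copy begins 16 bases before the start of transcription and the second lies in the first exon, 6 bases past the first transcribed base. At this second site the other strand holds an overlapping match, which takes in the last base shown.
Clcn7: TCACGTGggcaccgatgatagaTCACGTGa
The other Clcn7 promoter in the table held TCATGTG. Clcn7, with these matches, and Ostm1, without one, had log2 fold changes of -1.47 and -1.49. A link between a match and the change was not tested, and nothing is read from these values. A match describes the letters and not a bound site, and no binding was measured here.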

How the data were processed

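Raw counts per gene, as deposited, were used. According to the authors, trimGalore was used for trimming, STAR for alignment (mm10) and featureCounts for counting. Versions of STAR and featureCounts, strand setting and the treatment of reads that map to several places are not given in the sources used here. Sample labels hold no column names. By genotype, the study's supporting values list 6 of the columns (F187, F325, F331, F368, M408, M624), and M351, M9 and M664 were assigned by the letter M.

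Counts were fitted in R 4.3.3 with edgeR 4.0.16 (TMM, filterByExpr with a minimum count of 10, glmQLFit, glmQLFTest, no covariate), with Benjamini-Hochberg adjustment over 15365 genes. The threshold for a call was a fold change above 1.5 with an adjusted p below 0.05. DESeq2 1.42.0 and limma 3.58.1 (voom with quality weights) were alternatives. The tests were checked on simulated data. Log2 CPM used a prior count of 2. Exon lengths came from GENCODE vM21, which holds 55111 of the 55367 identifiers. Background was the count per kilobase of exon on 1824 chemosensory receptor genes, scaled to each gene's exon length. Floors cover counting error only. P values weigh the difference between the groups against the spread between tumors within them, which takes in differences between libraries.

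The 9 genes and all lists were chosen with earlier results of these data known. Named were the 9 genes, set paralogs with Slc4a2 and Rab7, up to 4 called genes of largest change per pathway list, the most abundant marker genes and those at 0, and the 5 genes most alike. Alternatives were other scalings, filters and tests, each tumor left out, sets of libraries left out, removal of satellite genes and subtraction of background. Subtraction of background without M624 and M664 was chosen after seeing the data.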

Additional observations from a re-analysis of the deposited data

How the results depend on the processing

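No paired analysis was possible because the table's columns carry no replicate numbers. The numbers in the sample labels count tumors within each group and state no pairing between the groups, so no known pairing was left out. The 9 acid secretion genes were recomputed under 21 alternatives, 20 planned and 1 chosen after seeing the data (background taken off without M624 and M664). The choice of these genes fixed their direction, so a negative sign in 188 of 188 values is no sign of stability. Of the 188, 2 moved by more than the spread between tumors, both for Tcirg1, which had -2.62 without M624 and M664 and -2.58 with background also taken off. Of 410 values for other named genes, 314 kept their direction and side of the threshold, 65 no longer passed, 19 newly passed and 12 changed direction. Requiring 10 counts in every tumor gave no value for Car2. The causes of the changes below were not tested.

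The counts called in the main analysis were 6 of the 9 acid secretion genes, 5 further V-ATPase, 0 CLC, 1 carbonic anhydrase and anion exchanger, and 2 traffic genes, beside 5.27% of all tested genes. That share was 0.885% with library size alone, 6.32% with upper-quartile normalization, 1.04% with all genes of at least 1 count, 14.2% with 10 counts in every tumor, 17.2% with DESeq2, 10.8% with limma-voom and 4.61% without M624 and M664. Library size alone gave 1, 0, 0, 0 and 0, moved the median of all genes by -0.12, and gave -0.96 for Atp6v0a4. Upper-quartile normalization called 1 CLC gene and split all calls into 626 higher and 345 lower, against 348 and 461 with TMM. With all genes of at least 1 count, 2 V-ATPase, 0 carbonic anhydrase or exchanger and 0 traffic genes were called. With at least 10 counts in every tumor, 6 V-ATPase, 1 CLC, 1 carbonic anhydrase or exchanger and 3 traffic genes were called. DESeq2 called 10 V-ATPase, 1 CLC, 2 carbonic anhydrase or exchanger and 6 traffic genes. With limma-voom 8 V-ATPase and 6 traffic genes were called, and Atp6v0a4 had -2.02 and Snx11 -0.19.

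Without M624 and M664, 8 V-ATPase and 0 traffic genes were called and Snx11 had -0.48. Without F187, M351, M408 and M9, 3 of the 9 genes, 2 CLC, 2 carbonic anhydrase or exchanger and 4 traffic genes (2 lower, 2 higher) were called, beside 27.9% of all tested genes, with 0.14 for Atp6v0d1 and -4.41 for Atp6v0a4. Removal of satellite genes gave 4 V-ATPase, 0 carbonic anhydrase or exchanger and 1 traffic gene, beside 3.81% of all tested genes. Subtraction of background gave 3 traffic genes, beside 7.83% of all tested genes, and -0.060 for Snx11. With M624 and M664 also left out it gave 6 V-ATPase genes and 1 traffic gene, beside 5.22% of all tested genes. In that fit Car12 had -0.066 and Snx11 -1.06.

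When each tumor was left out, the median of the 9 genes lay between -2.18 and -1.56, and the counts between 1 and 8 of the 9 genes, 0 and 6 V-ATPase, 0 and 0 CLC, 0 and 1 carbonic anhydrase or exchanger, and 0 and 2 traffic genes, beside 0.0292% to 10.4% of all tested genes. Atp6v0a4 ranged from -2.68 to 1.00, Car9 from -0.090 to 0.998 and Snx11 from -0.28 to 0.33.

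Depth limits what M9 and M351 can show, with 671790 and 872935 counts outside the satellite genes. In M9 the 9 genes had 8 to 42 counts each and in M351 11 to 62. In these libraries a gene at the floor of 3 counts has 2.39 and 1.85 CPM, against 0.114 CPM in M624.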
